A study of Mus musculus with 9 samples.

Results

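Cathepsins, other lysosomal hydrolases and their cofactors, lysosomal membrane proteins and the transcription factor Tfeb were followed in mouse lung after exposure to fine particles. They are 36 genes, taken by symbol from a list of cathepsins, glycosidases, lipid-handling proteins and membrane proteins of the lysosome, out of 18875 genes in the table. The rule reads gene symbols and no measured value, but the list was drawn up with earlier results of these data known. All 36 passed the filter that left 13991 genes for testing. By role they are 9 cysteine cathepsins, 2 cathepsins of other classes, 7 glycosidases, 5 proteins of lipid breakdown or transport, 5 other hydrolases or granulin precursors, 7 membrane proteins and Tfeb.

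Whole lungs of wild-type (WT) BALB/c mice, an inbred strain, were sequenced as poly(A) RNA in 9 libraries, 3 for each group. The PBS group is labelled as a long-term exposure to PBS, the saline vehicle. PM2.5, fine airborne particulate matter, was given through the nose at 10 mg/kg, 1 time to the short-term group and 6 times at intervals of 3 days to the long-term group. The short-term group therefore had no control of its own duration, and in its comparison with PBS the particles cannot be told apart from the difference in schedule. The sources used here do not give age, sex or the time from the last instillation to collection. Nothing in the labels says whether each sample of a group was a different mouse, so p-values here reflect the spread among these samples, which may be technical. The study was about lung fibrosis, acute injury and antioxidant defence, per its title, which does not mention lysosomes.

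The lysosome is the acidic compartment in which cells break down proteins, glycans and lipids taken up by endocytosis, phagocytosis and autophagy. Its soluble enzymes are made as inactive precursors, tagged with mannose phosphate, delivered through the Golgi and activated at low pH, while heavily glycosylated membrane proteins line the wall of the compartment. In the lung, alveolar macrophages carry inhaled particles into lysosomes, and alveolar type II cells store surfactant in lamellar bodies, which are related to lysosomes.

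Expression was in TPM, a share of all transcripts that is corrected for transcript length and keeps no record of the number of reads, so no counting interval could be given. The short-term libraries stood apart from the rest. Between 12560 and 13414 genes reached 1 TPM in them, compared with 13534 to 13930 in the other 6, and long transcripts were low in them. The median log2 difference from the PBS mean in the tenth of genes with the longest transcripts, minus that in the tenth with the shortest, was -1.62, -0.76 and -1.01 in short-term replicates 1, 2 and 3, against -0.20 to 0.04 in the other libraries. The median of all tested genes was shifted by -0.34 in short-term PM2.5 against PBS and by 0.41 between the 2 exposures, but by only 0.03 in long-term PM2.5 against PBS. Comparisons with the short-term group are therefore given as deposited, after scaling each library by its median ratio to the others, and after a correction for length and GC content of the transcripts in each library. The lung marker Sftpc was high in all 9 libraries, as was Ager.

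After repeated PM2.5 many lysosomal genes were higher than with PBS, and no member passed as lower. In long-term PM2.5 against PBS, which asks what repeated instillation changed at matched duration, 19 of 36 members rose (limma, Benjamini-Hochberg adjusted p under 0.05), while 9.51% of all tested genes did. The 19 were Ctsa, Ctsb, Ctsd, Ctsh, Ctsk, Ctsl, Ctss, Ctsz, Hexa, Gla, Gusb, Man2b1, Npc2, Psap, Grn, Cd63, Cd68, Laptm5 and Acp5. Their log2 fold changes ran from 0.56 for Grn to 3.80 for Ctsk. By the same limma test 0 members fell, with 0 at an unadjusted p under 0.05 as well, against 1.72% of all genes, and 17 did not pass. The median log2 fold change was 0.75 over the 36 members and 0.03 over all tested genes. After the length and GC correction 22 members rose and 0 fell, where 12.4% and 11.6% of all genes did, and after median-ratio scaling 20 rose and 0 fell, where 10.5% and 3.66% of all genes did. All 19 were called under the 3 scalings. Of these, Ctsh was not called without long-term replicate 1 (adjusted p = 0.0505), and Gla was not called without PBS replicate 1 (0.0586), PBS replicate 2 (0.0575) or long-term replicate 1 (0.0678).

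A single instillation was followed by a split: cathepsins A, B, D, H, K and Z, Npc2, Cd63, Cd68 and Acp5 were up, and a second set was down whose size depended on the scaling. In short-term PM2.5 against PBS 10 of 36 members rose and 9 fell as deposited, where 11.7% and 40.3% of all genes did. The share of lower members was below that of all genes, and the median log2 fold change was -0.01 over the members and -0.34 over all genes. After the length and GC correction 17 rose and 6 fell (24.0% and 26.4% of all genes), and after median-ratio scaling 17 rose and 2 fell (24.5% and 27.8%). All 10 that rose did so under the 3 scalings. Of the 9 that fell, Ctsf and Npc1 did, and Ctso, Lamp1, Lamp2, Gaa, Tpp1, Ppt1 and Mcoln1 lost the call in at least 1 scaling. Ctsl, Gla, Gusb, Psap and Scarb2 did not pass as deposited but were higher under both other scalings.

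Several short-term calls were also lost with 1 library left out, in some cases with little change in the fold change. Ctsd was not called without PBS replicate 1 (adjusted p = 0.0597), PBS replicate 3 (0.0519) or short-term replicate 3 (0.0523). Lamp1 lost its call without PBS replicate 1 (0.0527), Ppt1 without PBS replicate 2 (0.0583), and Mcoln1 without PBS replicate 1 (0.0739) or 3 (0.102). Lamp2 lost it without PBS replicate 1, 2 or 3 (0.0713 to 0.0903), and Gaa without PBS replicate 1 or 3 or short-term replicate 3 (0.0522 to 0.0890). Tpp1 lost it with any library left out other than short-term replicates 1 and 2 (0.0509 to 0.108), and Ctso with any left out other than short-term replicate 2 (0.0590 to 0.108). The long-term libraries do not enter the fold change of this comparison. Without any 1 of them it stayed at -0.72 for Tpp1 and -0.82 for Ctso, while without short-term replicate 1 Ctso was at -0.39.

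Set directly against the short-term lungs, the long-term lungs held more of most lysosomal transcripts as deposited, and less of 1, Cd63. In long-term against short-term PM2.5, 26 members were higher and 1 lower, where 43.4% of all genes were higher and 7.08% lower. The median was 0.71 over the members and 0.41 over all genes. After the length and GC correction 20 were higher and 6 lower (19.6% and 22.6% of all genes), and after median-ratio scaling 13 were higher and 3 lower (26.9% and 19.7%). The members called higher under all 3 scalings were 12, namely Ctsc, Ctsd, Ctsf, Ctsk, Ctss, Lamp2, Hexa, Gusb, Npc1, Lipa, Psap and Tpp1, and Cd63 was lower under all 3. Ctsc was not called without long-term replicate 1 (adjusted p = 0.0642), and the other 11 and Cd63 kept their calls with each library left out.

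Among the remaining calls of that comparison, those of Ppt1 (adjusted p = 0.0585), Glb1 (0.0971) and Mcoln1 (0.0841) were lost without long-term replicate 1. Glb1 (0.0814) and Mcoln1 (0.104) were not called without long-term replicate 2 either. Neu1 (0.0632 to 0.102) and Acp5 (0.0760 to 0.116) were not called without short-term replicate 3, long-term replicate 1 or long-term replicate 2. Ctsa was not called without PBS replicate 1 or 3, short-term replicate 2 or 3, or long-term replicate 1 or 2 (0.0549 to 0.160). Asah1 was not called without PBS replicate 1 or 2, short-term replicate 3, or any 1 long-term library (0.0502 to 0.101).

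**Figure D1:**
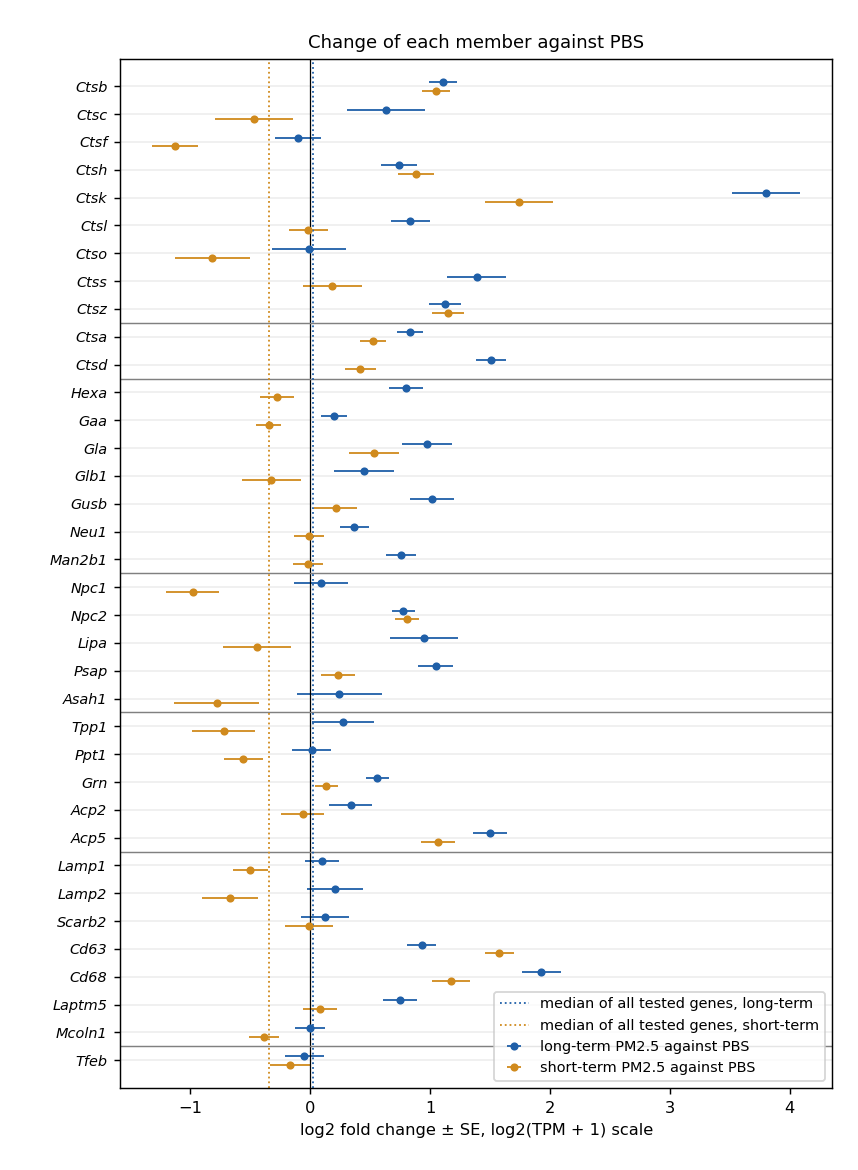
Log2 fold change against PBS with its standard error for each of the 36 members, grouped by role (horizontal axis, log2(TPM + 1) scale, 3 libraries a group, blue for long-term and orange for short-term PM2.5, dotted lines for the all-gene medians of 0.03 and -0.34). The long-term points reach 3.80 for Ctsk and most lie right of 0, while the short-term points run from -1.13 for Ctsf to 1.74 for Ctsk.

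Cysteine cathepsins, papain-like proteases that depend on an active-site cysteine, held the largest change. Of the 9, 6 rose in long-term PM2.5 against PBS (9.51% of all tested genes did) and 3 did not pass. In the short-term comparison 4 rose and 2 fell (11.7% and 40.3% of all genes). After the length and GC correction these were 5 and 2 (24.0% and 26.4%), and after median-ratio scaling 6 and 1 (24.5% and 27.8%). Against short-term PM2.5, 5 were higher after long-term PM2.5 (43.4% of all genes). After the correction 4 were higher and 2 lower (19.6% and 22.6%), and after median-ratio scaling 5 and 1 (26.9% and 19.7%). Library values are given throughout in the order of replicates 1, 2 and 3, and fold changes as log2 ± SE with n = 3 per group. Ctsk, a collagen- and elastin-degrading protease of osteoclasts and activated macrophages, stood at 8.67, 12.2 and 12.8 TPM with PBS, 27.6, 51.9 and 42.5 TPM after short-term and 226, 184 and 113 TPM after long-term PM2.5. The 3 groups did not overlap, and the long-term mean was 15.6 times that of PBS. Its log2 fold change was 3.80 ± 0.28 (adjusted p = 3.48e-05) against PBS after long-term and 1.74 ± 0.28 (adjusted p = 0.00112) after short-term PM2.5, and 2.06 ± 0.28 (adjusted p = 0.000572) between the 2 exposures. Ctsk was also the member with the widest spread among the long-term libraries, with a coefficient of variation of 32.7%.

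Ctss, the protease that trims the invariant chain in antigen-presenting cells, is the neighbour of Ctsk on chromosome 3, with 17398 bp between the 2 genes (GRCm38.p6, Ctsk at chromosome 3, 95499210 to 95509387 and Ctss at chromosome 3, 95526786 to 95556405). The next closest members, Ppt1 and Laptm5, lie 8053714 bp apart. Ctss read 133, 133 and 132 TPM in the PBS libraries, 111, 244 and 127 TPM in the short-term libraries and 408, 357 and 295 TPM in the long-term libraries. The long-term libraries were above all others, and short-term replicate 2 was well above its group. Its log2 fold change was 1.39 ± 0.25 (adjusted p = 0.00459) in long-term PM2.5 and 1.21 ± 0.25 (adjusted p = 0.00405) between long-term and short-term PM2.5. In the short-term comparison, where Ctsk rose, Ctss was at 0.18 as deposited (adjusted p = 0.544), 0.08 (adjusted p = 0.700) after the length and GC correction and 0.53 (adjusted p = 0.0348) after median-ratio scaling.

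Ctsb, Ctsh and Ctsz were already high after 1 instillation. Ctsb, an abundant endo- and exopeptidase, was at 357, 389 and 374 TPM with PBS, 699, 856 and 774 TPM after short-term and 900.0, 812 and 719 TPM after long-term PM2.5. Ctsz, a carboxypeptidase, measured 198, 189 and 203 TPM with PBS, 499, 429 and 392 TPM after short-term and 487, 450.0 and 365 TPM after long-term PM2.5. Ctsh, an aminopeptidase that takes part in the processing of surfactant protein precursors, was at 211, 195 and 209 TPM in the PBS libraries, 298, 439 and 411 TPM in the short-term libraries and 379, 349 and 305 TPM in the long-term libraries. In each of the 3 genes both exposed groups lay above PBS and overlapped with each other. Against PBS the log2 fold change of Ctsb was 1.05 ± 0.12 (adjusted p = 0.000237) after short-term and 1.11 ± 0.12 (adjusted p = 0.000277) after long-term PM2.5. For Ctsz it was 1.15 ± 0.13 (adjusted p = 0.000259) and 1.12 ± 0.13 (adjusted p = 0.000494), and for Ctsh 0.88 ± 0.15 (adjusted p = 0.00141) and 0.74 ± 0.15 (adjusted p = 0.00918), in the same order. Relative to the all-gene median the short-term values were 1.39, 1.49 and 1.22 for Ctsb, Ctsz and Ctsh. Long-term against short-term PM2.5 gave 0.06 for Ctsb as deposited (adjusted p = 0.682), -0.56 (adjusted p = 0.00463) with the length and GC correction and -0.33 (adjusted p = 0.0585) with median-ratio scaling. Ctsh was at -0.14 (adjusted p = 0.454), -0.51 (adjusted p = 0.00158) and -0.53 (adjusted p = 0.00394), so that it was lower in the long-term group under the 2 alternatives, while Ctsz did not pass under any of the 3.

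Ctsl and Ctsc were both higher after long-term than after short-term PM2.5, and Ctsl was also higher than with PBS. Ctsl, a broad endopeptidase, stood at 162, 153 and 149 TPM with PBS, 118, 185 and 164 TPM after short-term and 308, 289.8 and 238 TPM after long-term PM2.5. Its long-term libraries were above the other 6, with log2 fold changes of 0.84 ± 0.16 (adjusted p = 0.00808) against PBS and 0.85 ± 0.16 (adjusted p = 0.00317) against short-term PM2.5. The latter was 0.06 (adjusted p = 0.690) after the length and GC correction and 0.46 (adjusted p = 0.00942) after median-ratio scaling. The correction used the longest annotated transcript of each gene. That of Ctsl, 6168 bases, is the longest among the members, and whether it is the main transcript in these lungs was not tested. Ctsc, the dipeptidyl peptidase that activates granule serine proteases, was at 89.3, 99.7 and 85.8 TPM with PBS, 34.2, 109.7 and 75.8 TPM after short-term and 164, 134 and 132 TPM after long-term PM2.5. Short-term replicate 1 was far below the other 2 libraries of its group. The long-term libraries were above all PBS libraries, but the change of 0.63 did not pass (adjusted p = 0.296), and passed after the length and GC correction at 0.50 (adjusted p = 0.0437). Between long-term and short-term PM2.5 Ctsc rose by 1.10 ± 0.32 (adjusted p = 0.0183).

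Ctsf and Ctso were the cysteine cathepsins that fell after short-term exposure. Ctsf measured 24.8, 24.0 and 21.6 TPM in the PBS libraries, 7.42, 10.2 and 13.8 TPM in the short-term libraries and 21.5, 22.3 and 21.6 TPM in the long-term libraries. Every short-term library was below the other 6, and PBS and long-term values overlapped. Its log2 fold change was -1.13 ± 0.19 (adjusted p = 0.00133) against PBS, with -1.12 (adjusted p = 0.000465) after the length and GC correction and -0.80 (adjusted p = 0.00204) after median-ratio scaling, and 1.03 ± 0.19 (adjusted p = 0.00256) in long-term against short-term PM2.5. Ctso was at 20.7, 20.2 and 20.5 TPM with PBS, 5.72, 18.5 and 12.8 TPM after short-term and 23.9, 19.0 and 18.4 TPM after long-term PM2.5, and it fell by 0.82 ± 0.31 on the log2 scale (adjusted p = 0.0479), with short-term replicate 1 the lowest at 5.72 TPM. After median-ratio scaling the value of Ctso was -0.50 (adjusted p = 0.0869).

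The cathepsins of other classes rose in both exposures as deposited. Ctsd, the main aspartic protease of the lysosome, stood at 561, 569 and 570.1 TPM in the PBS libraries, 713, 785 and 779 TPM in the short-term libraries and 1906, 1616 and 1362 TPM in the long-term libraries. The 3 groups did not overlap, and long-term replicate 1 was the highest value of any member in any library. Its log2 fold change was 1.51 ± 0.13 (adjusted p = 6.81e-05) after long-term PM2.5 and 1.09 ± 0.13 (adjusted p = 0.000256) between the exposures, and 0.42 (adjusted p = 0.0193) after short-term PM2.5. The short-term call of Ctsd was lost with quantile normalization (limma, adjusted p = 0.235). Ctsa, a serine carboxypeptidase that also shields Neu1 and Glb1 in a complex, was at 133, 132 and 138 TPM with PBS, 202, 190.2 and 189 TPM after short-term and 274, 235 and 215 TPM after long-term PM2.5. Its groups were separate as well, with 0.83 ± 0.11 (adjusted p = 0.000946) after long-term and 0.53 ± 0.11 (adjusted p = 0.00371) after short-term PM2.5. The difference of Ctsa between the exposures, 0.31 as deposited (adjusted p = 0.0383), was -0.08 (adjusted p = 0.690) after median-ratio scaling and -0.06 (adjusted p = 0.715) after the length and GC correction, so its direction depended on the scaling.

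Tfeb and its relatives bind the CLEAR element of lysosomal promoters, whose centre reads TCACGTGA, so the promoters of the members were searched for it. Promoter windows of 300 bases, 250 before and 50 after the gene's start, came from RefSeq on GRCm38.p6 and were found for 32 of the 36 members, 4 of which had more than 1 window because RefSeq gives them several starts. TCACGTGA is its own reverse complement, so 1 search covers both strands, and it contains the shorter palindrome CACGTG. The 8 letters were present in a window of 4 of the 32 members (12.5%), those of Ctsd, Ctsa, Gla and Mcoln1, and in 304 of 27025 genes with a window (1.12%). CACGTG was present in 9 of 32 (28.1%), the same 4 and Ctsf, Ctsl, Lamp1, Gaa and Glb1, and in 2187 of all genes (8.09%). The 4 stretches that hold the motif are printed 5′ to 3′ on the strand of the gene, with the motif in capitals, because they join the promoter search to the expression values. A match is a description of the letters and not a measured binding site.
Ctsd: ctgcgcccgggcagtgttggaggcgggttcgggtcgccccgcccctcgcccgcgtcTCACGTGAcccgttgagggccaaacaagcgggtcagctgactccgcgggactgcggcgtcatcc
Ctsa: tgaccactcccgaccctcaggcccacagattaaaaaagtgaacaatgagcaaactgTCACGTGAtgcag
Gla: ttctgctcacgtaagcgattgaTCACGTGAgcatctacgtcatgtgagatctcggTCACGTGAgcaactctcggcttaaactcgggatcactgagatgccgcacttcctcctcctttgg
Mcoln1: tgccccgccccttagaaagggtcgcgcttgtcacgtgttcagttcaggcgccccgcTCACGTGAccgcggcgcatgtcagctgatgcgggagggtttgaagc

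The Ctsd stretch is chr7:142387863-142387982 on the minus strand, with the motif starting 99 bases before the gene's start. That of Ctsa is chr2:164833704-164833772 on the plus strand, with the motif 13 bases before the start of the second of its 2 windows, and another copy begins 4 bases after that start. This start, at 164833773, lies 901 bases inside the annotated gene, which begins at 164832872, and the window at the first start does not hold the motif. The Gla stretch, chrX:134601137-134601255 on the minus strand, has 2 copies, 228 and 195 bases before the start, and that of Mcoln1, chr8:3500417-3500518 on the plus strand, has 1 copy 46 bases before it. Of the 4 genes, Ctsd, Ctsa and Gla rose in long-term PM2.5 against PBS and Mcoln1 did not pass (-0.0018, adjusted p = 0.996). Of the 5 with CACGTG alone, Ctsl rose and Ctsf, Lamp1, Gaa and Glb1 did not pass. Over all 36 members 19 rose in that comparison, and a link between the motif and the change was not tested.

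Glycosidases, which strip sugars from glycoproteins and glycolipids, were called higher after repeated exposure in part. Of the 7, 4 rose in long-term PM2.5 against PBS (Hexa, Gla, Gusb and Man2b1) and 3 did not pass, where 9.51% of all tested genes rose. In the short-term comparison 0 rose and 1 fell (limma, Gla alone being higher at an unadjusted p under 0.05), where 11.7% and 40.3% of all genes did. Against short-term PM2.5, 6 were higher after long-term PM2.5, where 43.4% of all genes were. The counts of the last 2 comparisons depended on the scaling. After the length and GC correction 3 glycosidases (Gla, Gusb and Neu1) were higher and Hexa lower in the short-term comparison (24.0% and 26.4% of all genes). After median-ratio scaling 2 (Gla and Gusb) were higher there and 0 lower (24.5% and 27.8%). In long-term against short-term PM2.5 the correction left 4 higher (19.6% of all genes) and median-ratio scaling 2, Hexa and Gusb (26.9%). Hexa, a subunit of beta-hexosaminidase A, which degrades GM2 ganglioside, was at 86.4, 87.1 and 92.4 TPM with PBS, 63.0, 84.1 and 72.8 TPM after short-term and 176, 161 and 131 TPM after long-term PM2.5. The long-term libraries were the highest, and the short-term libraries lay below PBS without passing (-0.28, adjusted p = 0.118). Hexa rose by 0.80 ± 0.14 (adjusted p = 0.00462) against PBS and 1.08 ± 0.14 (adjusted p = 0.000480) against short-term PM2.5. Gusb, beta-glucuronidase, measured 24.9, 27.2 and 26.7 TPM in the PBS libraries, 22.3, 39.0 and 32.8 TPM in the short-term libraries and 59.8, 50.6 and 52.6 TPM in the long-term libraries. Its long-term values exceeded all others, by 1.02 ± 0.18 (adjusted p = 0.00483) over PBS and 0.81 ± 0.18 (adjusted p = 0.00622) over short-term PM2.5.

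Man2b1, the lysosomal alpha-mannosidase, was at 46.9, 47.0 and 56.7 TPM with PBS, 50.5, 50.7 and 47.0 TPM after short-term and 92.7, 89.0 and 75.2 TPM after long-term PM2.5. PBS and short-term values overlapped and the long-term libraries were above both, at 0.76 ± 0.12 (adjusted p = 0.00302) and 0.78 ± 0.12 (adjusted p = 0.00132), the second of which was 0.39 (adjusted p = 0.0529) after median-ratio scaling. Gla, alpha-galactosidase A, which clears globotriaosylceramide, was the least abundant member at 4.80, 4.71 and 5.29 TPM in the PBS libraries, 5.79, 10.2 and 7.35 TPM in the short-term libraries and 13.4, 9.88 and 9.0 TPM in the long-term libraries. Both exposed groups were above PBS and overlapped. Gla rose by 0.97 ± 0.21 (adjusted p = 0.0126) after long-term PM2.5, and its short-term value of 0.53 (adjusted p = 0.0517) did not pass as deposited but was 0.89 (adjusted p = 0.000144) with the length and GC correction and 0.84 (adjusted p = 0.000970) with median-ratio scaling.

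Gaa, Neu1 and Glb1 did not pass in long-term PM2.5 against PBS. Gaa, the acid alpha-glucosidase of glycogen breakdown, stood at 56.9, 55.2 and 63.7 TPM with PBS, 43.1, 48.5 and 45.9 TPM after short-term and 65.6, 69.8 and 67.0 TPM after long-term PM2.5. Its short-term libraries were below both other groups, at -0.35 against PBS (adjusted p = 0.0216), which became -0.0014 (adjusted p = 0.993) after median-ratio scaling, and it was higher by 0.55 ± 0.11 (adjusted p = 0.00340) in long-term than in short-term PM2.5, or 0.24 (adjusted p = 0.0337) after the length and GC correction and 0.17 (adjusted p = 0.260) after median-ratio scaling. Neu1, a sialidase, was at 18.5, 18.4 and 20.5 TPM with PBS, 18.3, 19.5 and 19.1 TPM after short-term and 26.4, 26.2 and 22.4 TPM after long-term PM2.5. Long-term values were above the rest, at 0.37 against PBS (adjusted p = 0.0914), and the as-deposited difference from short-term PM2.5 of 0.38 (adjusted p = 0.0277) was -0.0044 (adjusted p = 0.975) after the length and GC correction. Glb1, beta-galactosidase, measured 12.3, 16.4 and 16.4 TPM in the PBS libraries, 7.97, 15.5 and 13.0 TPM in the short-term libraries and 24.9, 22.9 and 15.6 TPM in the long-term libraries. Its 3 groups were uneven, the long-term libraries overlapped PBS (0.45, adjusted p = 0.344), and the rise over short-term PM2.5 of 0.77 ± 0.25 (adjusted p = 0.0259) was not called under the other scalings.

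Proteins of lipid breakdown and transport split by gene. Psap, the precursor of the saposins that present lipids to hydrolases, stood at 634, 658 and 656 TPM with PBS, 631, 939.8 and 749 TPM after short-term and 1481, 1332 and 1228 TPM after long-term PM2.5. Its long-term libraries were above the other 6, short-term and PBS values overlapped, and its log2 fold change was 1.05 ± 0.14 (adjusted p = 0.00123) against PBS and 0.82 ± 0.14 (adjusted p = 0.00212) against short-term PM2.5. Npc2 and Npc1 hand cholesterol out of the lysosome, the soluble Npc2 to the membrane protein Npc1, and their values differed in pattern. Npc2 was at 429, 387 and 433 TPM in the PBS libraries, 723, 770.2 and 691 TPM in the short-term libraries and 727, 733 and 683 TPM in the long-term libraries, while Npc1 was at 28.1, 33.6 and 30.2 TPM with PBS, 9.77, 20.0 and 17.1 TPM after short-term and 36.8, 31.0 and 30.4 TPM after long-term PM2.5. Both exposed groups were above PBS for Npc2 and overlapped with each other, and for Npc1 the short-term libraries were below all others.

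Npc2 rose by 0.81 ± 0.10 (adjusted p = 0.000324) after short-term and 0.78 ± 0.10 (adjusted p = 0.000761) after long-term PM2.5, the first 1.15 above the all-gene median. Npc1 fell by 0.98 ± 0.22 on the log2 scale (adjusted p = 0.00531) after short-term PM2.5. Npc1 has a transcript of 5756 bases, and its short-term value was -0.25 (adjusted p = 0.0465) after the length and GC correction and -0.65 (adjusted p = 0.00495) after median-ratio scaling. Long-term PM2.5 left Npc1 at 0.09 against PBS (adjusted p = 0.910), which was 1.07 ± 0.22 (adjusted p = 0.00429) above short-term PM2.5, or 0.31 (adjusted p = 0.0212) above it after the length and GC correction. Npc2 differed between the exposures by -0.03 as deposited (adjusted p = 0.832) and was lower in the long-term group with the length and GC correction, at -0.42 (adjusted p = 0.0119), and with median-ratio scaling, at -0.42 (adjusted p = 0.0343).

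Lipa and Asah1 were uneven in the short-term libraries. Lipa, lysosomal acid lipase, which frees cholesterol from its esters, was at 36.02, 42.8 and 33.6 TPM with PBS, 15.6, 39.7 and 32.0 TPM after short-term and 88.9, 70.4 and 62.2 TPM after long-term PM2.5. All long-term values exceeded the other 6 and short-term replicate 1 was the lowest. The change of 0.95 against PBS just missed the threshold as deposited (adjusted p = 0.0583) and passed with the length and GC correction, at 0.85 (adjusted p = 0.00156), and median-ratio scaling, at 0.91 (adjusted p = 0.0157). Against short-term PM2.5 Lipa was higher by 1.39 ± 0.28 (adjusted p = 0.00399) as deposited, by 0.82 (adjusted p = 0.00112) after the length and GC correction and by 1.02 (adjusted p = 0.00414) after median-ratio scaling. Asah1, acid ceramidase, read 49.5, 47.8 and 46.0 TPM in the PBS libraries, 12.9, 48.9 and 32.0 TPM in the short-term libraries and 63.9, 54.4 and 52.6 TPM in the long-term libraries. Its short-term coefficient of variation, 57.5%, was the highest of any member, its change in long-term PM2.5 against PBS did not pass (0.24, adjusted p = 0.813), and the difference of 1.02 ± 0.35 (adjusted p = 0.0345) between the exposures was 0.65 (adjusted p = 0.0688) after median-ratio scaling.

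Among the other soluble proteins, Acp5 and Grn rose after repeated exposure. Acp5, the tartrate-resistant acid phosphatase of osteoclasts and macrophages, stood at 27.4, 27.5 and 27.0 TPM with PBS, 57.5, 66.1 and 52.0 TPM after short-term and 92.3, 79.7 and 66.9 TPM after long-term PM2.5. The 3 groups were separate, with 1.499 ± 0.14 (adjusted p = 0.000128) after long-term and 1.07 ± 0.14 (adjusted p = 0.000435) after short-term PM2.5 (1.41 above the all-gene median). The difference between the exposures, 0.43 as deposited (adjusted p = 0.0273), was 0.05 (adjusted p = 0.798) after median-ratio scaling. Grn, progranulin, a secreted and lysosomal precursor of granulins, was at 188, 196 and 203 TPM with PBS, 226, 213 and 206 TPM after short-term and 307, 286 and 274 TPM after long-term PM2.5. Its long-term libraries were the highest, at 0.56 ± 0.10 (adjusted p = 0.00396) against PBS.

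Tpp1, Ppt1 and Acp2 did not pass in long-term PM2.5 against PBS. Tpp1, tripeptidyl peptidase, was at 74.8, 79.2 and 68.3 TPM with PBS, 26.4, 64.4 and 51.3 TPM after short-term and 99.9, 91.9 and 78.8 TPM after long-term PM2.5, and Ppt1, which removes fatty acids from proteins, at 65.2, 73.4 and 65.9 TPM in the PBS libraries, 34.5, 54.2 and 51.5 TPM in the short-term libraries and 73.1, 64.7 and 68.8 TPM in the long-term libraries. In both genes the short-term libraries were below the other 6. As deposited the short-term log2 fold change was -0.72 ± 0.26 (adjusted p = 0.0391) for Tpp1 and -0.56 ± 0.16 (adjusted p = 0.0163) for Ppt1, and after median-ratio scaling these were -0.38 (adjusted p = 0.101) and -0.21 (adjusted p = 0.119). Long-term over short-term PM2.5 gave 1.00 ± 0.26 (adjusted p = 0.0113) for Tpp1 and 0.57 ± 0.16 (adjusted p = 0.0158) for Ppt1, of which the first was called under all 3 scalings. Acp2, an acid phosphatase, ran from 11.9 to 22.8 TPM over the 9 libraries and passed in no comparison as deposited. After the length and GC correction it passed in all 3, at 0.28 (adjusted p = 0.0319) in long-term PM2.5 against PBS, 0.52 (adjusted p = 0.000560) in short-term PM2.5 against PBS and -0.25 (adjusted p = 0.0323) in long-term against short-term PM2.5, the last with its direction turned from 0.40 as deposited, and after median-ratio scaling in none.

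Membrane proteins split within their role. Of the 7, Cd63, Cd68 and Laptm5 rose in long-term PM2.5 against PBS, and Lamp1, Lamp2, Scarb2 and Mcoln1 did not pass. Of all tested genes 9.51% rose there. Cd68, a glycoprotein of macrophage late endosomes and lysosomes, stood at 80.0, 101 and 82.6 TPM with PBS, 177, 218 and 204 TPM after short-term and 399, 353 and 267 TPM after long-term PM2.5. The groups were separate and in that order, with 1.93 ± 0.16 (adjusted p = 6.61e-05) after long-term PM2.5, 1.18 ± 0.16 (adjusted p = 0.000535) after short-term PM2.5 and 0.75 ± 0.16 (adjusted p = 0.00494) between them, the last 0.36 (adjusted p = 0.0842) after median-ratio scaling. Cd63, a tetraspanin of late endosomes, lysosome-related granules and exosomes, was at 203, 190.0 and 182 TPM in the PBS libraries, 574, 619 and 532 TPM in the short-term libraries and 423, 357 and 323 TPM in the long-term libraries. Here the short-term libraries were the highest, the long-term libraries lay between and no groups overlapped.

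Cd63 rose by 1.58 ± 0.12 (adjusted p = 2.45e-05) after short-term PM2.5 (1.92 above the all-gene median) and by 0.93 ± 0.12 (adjusted p = 0.000874) after long-term PM2.5. In long-term against short-term PM2.5 its log2 fold change was -0.65 ± 0.12 (adjusted p = 0.00267), with -0.89 (adjusted p = 0.000482) after the length and GC correction and -1.04 (adjusted p = 0.000808) after median-ratio scaling, and it was the 1 member lower under all 3. Laptm5, a lysosomal membrane protein of blood-derived cells, was at 205, 224 and 266 TPM with PBS, 267, 257 and 212 TPM after short-term and 424, 413 and 334 TPM after long-term PM2.5. PBS and short-term libraries overlapped and long-term values were above both, by 0.75 ± 0.14 (adjusted p = 0.00704) and 0.67 ± 0.14 (adjusted p = 0.00510), the second being 0.28 (adjusted p = 0.241) after median-ratio scaling.

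Lamp1 and Lamp2, the most abundant glycoproteins of the lysosomal wall, did not pass in long-term PM2.5 against PBS. Lamp1 measured 685, 658 and 676 TPM in the PBS libraries, 377, 571 and 502 TPM in the short-term libraries and 760.3, 737 and 668 TPM in the long-term libraries. Its short-term libraries were below all others, PBS and long-term values overlapped, and the long-term change was 0.10 (adjusted p = 0.816). The short-term value of Lamp1 was -0.50 as deposited (adjusted p = 0.0162) and -0.15 (adjusted p = 0.277) after median-ratio scaling, and it was higher by 0.60 ± 0.14 (adjusted p = 0.00834) in long-term than in short-term PM2.5, or 0.21 (adjusted p = 0.140) after median-ratio scaling. Lamp2, also a receptor of chaperone-mediated autophagy, was at 137, 142 and 133 TPM with PBS, 53.8, 117 and 100.3 TPM after short-term and 174, 155 and 146 TPM after long-term PM2.5. Its long-term libraries were just above PBS (0.21, adjusted p = 0.735) and the short-term libraries below. After short-term PM2.5 Lamp2 was at -0.67 ± 0.23 (adjusted p = 0.0340), or -0.32 (adjusted p = 0.103) after median-ratio scaling, and in long-term against short-term PM2.5 at 0.87 ± 0.23 (adjusted p = 0.0122).

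Mcoln1, the calcium channel TRPML1 of the lysosomal membrane, was at 43.0, 39.8 and 46.9 TPM with PBS, 29.6, 32.4 and 37.0 TPM after short-term and 43.6, 45.8 and 40.1 TPM after long-term PM2.5. PBS and long-term values overlapped and all short-term values were lower, at -0.38 as deposited (adjusted p = 0.0272) and -0.04 (adjusted p = 0.805) after median-ratio scaling. In long-term against short-term PM2.5 Mcoln1 was at 0.38 (adjusted p = 0.0290), or 0.0007 (adjusted p = 0.996) after median-ratio scaling. Scarb2, the receptor that carries glucocerebrosidase to the lysosome, ran from 44.8 to 82.8 TPM and passed in no comparison as deposited. After the length and GC correction it was 0.59 (adjusted p = 0.000613) in the short-term comparison and -0.52 (adjusted p = 0.00176) in long-term against short-term PM2.5. Tfeb, the transcription factor that drives lysosomal and autophagy genes, was at 41.8, 38.3 and 43.9 TPM in the PBS libraries, 45.6, 28.4 and 37.7 TPM in the short-term libraries and 36.3, 41.4 and 42.0 TPM in the long-term libraries. Its groups overlapped throughout, with log2 fold changes of -0.05 (adjusted p = 0.936), -0.17 (adjusted p = 0.400) and 0.12 (adjusted p = 0.551) in long-term PM2.5 against PBS, short-term PM2.5 against PBS and long-term against short-term PM2.5.

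**Figure D2:**
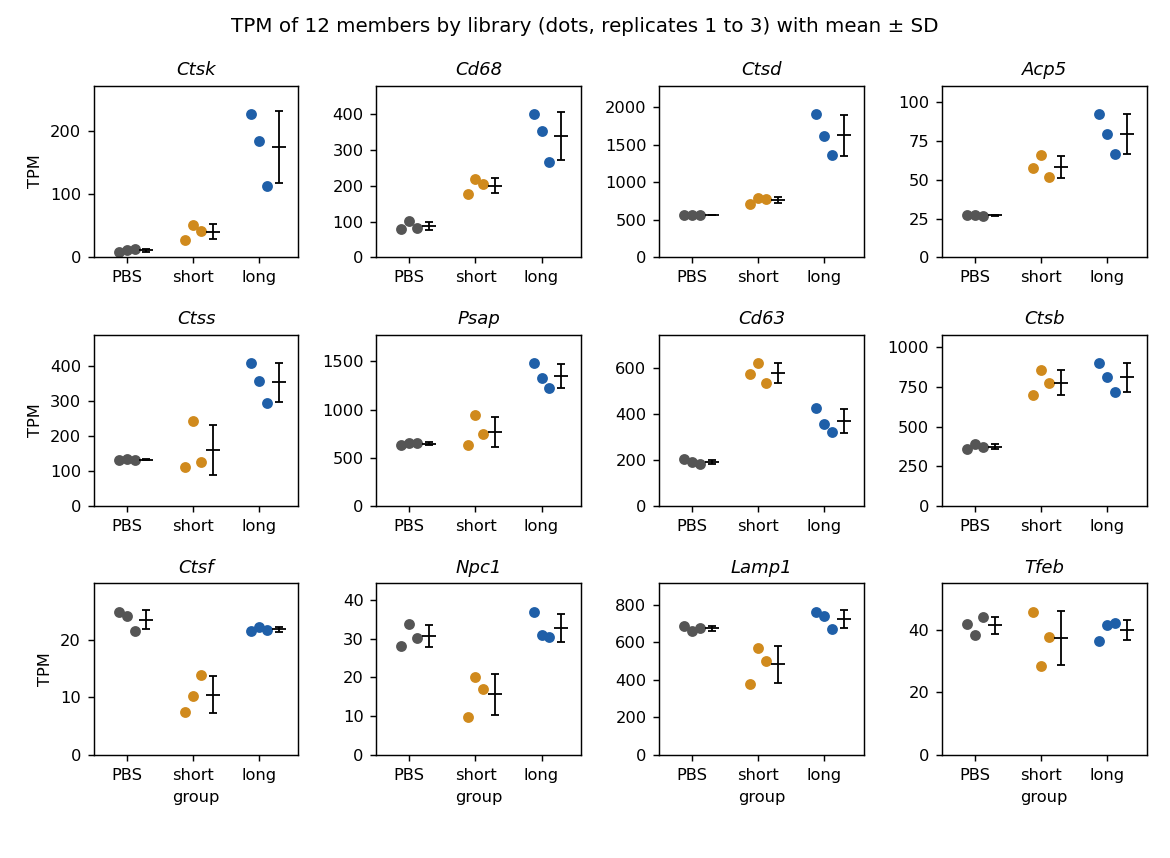
TPM of 12 members (vertical axis) in each library (dots, replicates 1 to 3 from left to right) by group, with the mean ± SD beside them. Ctsk runs from 8.67 TPM in a PBS library to 226 TPM in a long-term library, Cd63 is highest in the short-term libraries at 532 to 619 TPM, and the groups of Tfeb overlap.

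Read across the 3 comparisons, the calls of the members fell into a few patterns as deposited. The largest, of 8 members each, were a rise in long-term PM2.5 over both other groups with no call in the short-term comparison (Ctsl, Ctss, Hexa, Gusb, Man2b1, Psap, Grn and Laptm5), and a fall after short-term PM2.5 with no call in long-term PM2.5 against PBS (Ctsf, Lamp1, Lamp2, Gaa, Npc1, Tpp1, Ppt1 and Mcoln1). The first pattern was that of 4.21% of all tested genes, and the second, whose members were also higher in long-term against short-term PM2.5, that of 30.3%, a larger share than the 22.2% of the members. Another 5, Ctsa, Ctsd, Ctsk, Cd68 and Acp5, rose after short-term and were higher again after long-term PM2.5, as were 0.579% of all genes. A further 4, Ctsb, Ctsh, Ctsz and Npc2, rose in both exposures with no difference called between them, against 2.23% of all genes. Ctsc, Glb1, Neu1, Lipa and Asah1 were called only as higher in long-term against short-term PM2.5, as were 6.47% of all genes. Scarb2, Tfeb and Acp2 passed in none, against 35.5% of all genes. Cd63, Ctso and Gla had patterns of their own, held by 0.750%, 7.25% and 0.465% of all genes. The 3 comparisons share libraries 2 at a time, so these patterns are not independent observations. They also depended on the scaling. No member of the first pattern kept it under all 3 scalings, and in the second only Ctsf and Npc1 did. Of those higher again after long-term PM2.5, only Ctsd and Ctsk were so under all 3. Ctsh and Npc2 were lower in long-term than in short-term PM2.5 under both other scalings, and Ctsb after the length and GC correction.

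**Figure D3:**
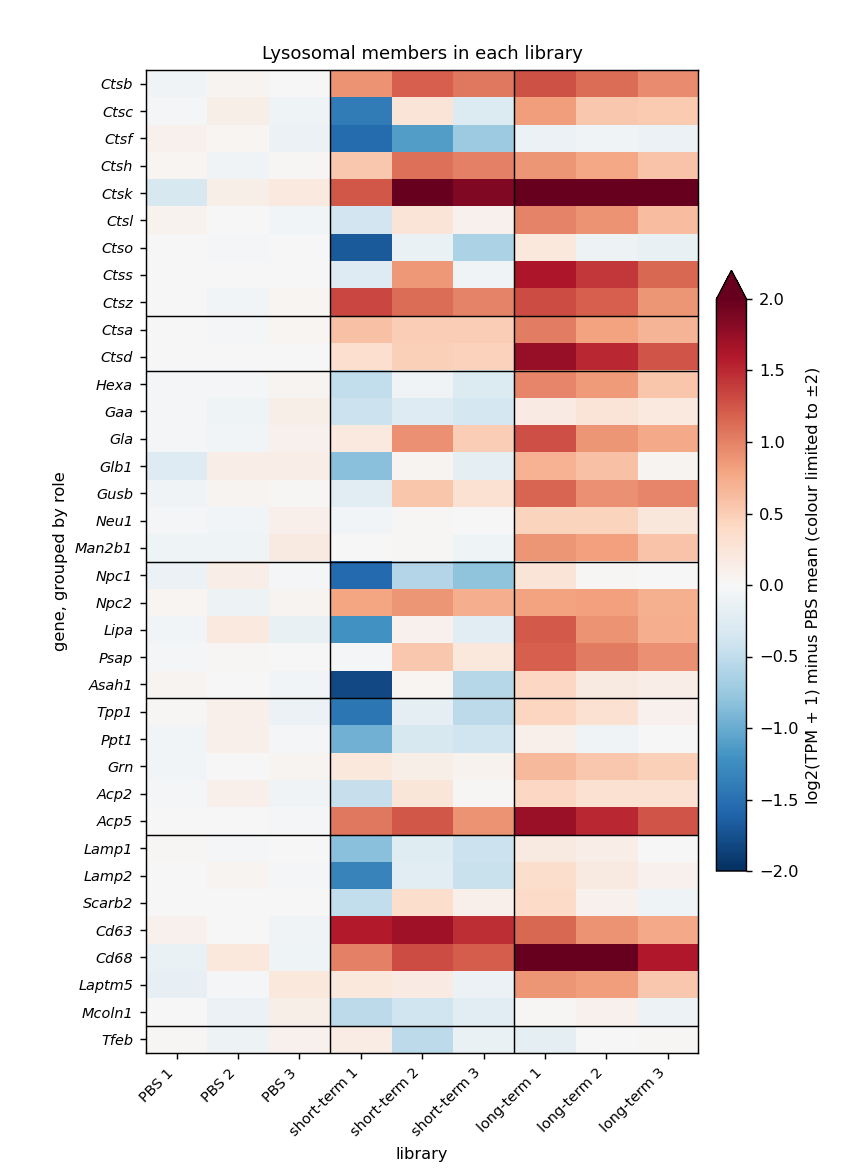
Log2(TPM + 1) minus the PBS mean of the gene, as colour limited to 2 in either direction, for each member (rows, by role) in each of the 9 libraries (columns, by group). Ctsk passes the upper limit in all 3 long-term libraries, and short-term replicate 1 holds the lowest values of members such as Asah1, Lamp2 and Npc1.

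Summed, the 36 members made up 0.516% to 0.527% of all TPM in the PBS libraries, 0.624% to 0.775% in the short-term libraries and 0.860% to 1.09% in the long-term libraries, so that the 3 groups did not overlap. The order of levels, which can be read from TPM since it is per length, also shifted. The loss of long transcripts in the short-term libraries bears on this order. So does the duplex-specific nuclease described below, which lowers abundant transcripts, and the part of either was not tested. With PBS the most abundant members by mean were Lamp1 at 673 TPM, Psap at 649 TPM and Ctsd at 567 TPM, the first 2 with touching library ranges. After short-term PM2.5 they were Ctsb at 776 TPM, Psap at 773 TPM and Ctsd at 759 TPM, with overlapping library ranges. After long-term PM2.5 Ctsd led with 1628 TPM, or 16.7% of the members' sum, before Psap at 1347 TPM, whose libraries overlapped with those of Ctsd, and Ctsb at 810.3 TPM and Lamp1 at 722 TPM, which overlapped as well.

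Spread between the libraries of a group was uneven. The median coefficient of variation of the members was 5.77% with PBS, 21.1% after short-term and 11.5% after long-term PM2.5. In long-term PM2.5, replicate 1 was the highest of the 3 libraries in 18 of the 19 members that rose against PBS, and replicate 3 the lowest in 18. In the short-term group, replicate 1 was the lowest library in all 9 members that fell, and replicate 2 the highest in 8 of the 10 that rose. Short-term replicate 1 was also the library with the strongest loss of long transcripts, given above, and the part of this in the member values was not tested beyond the correction shown here.

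**Figure D4:**
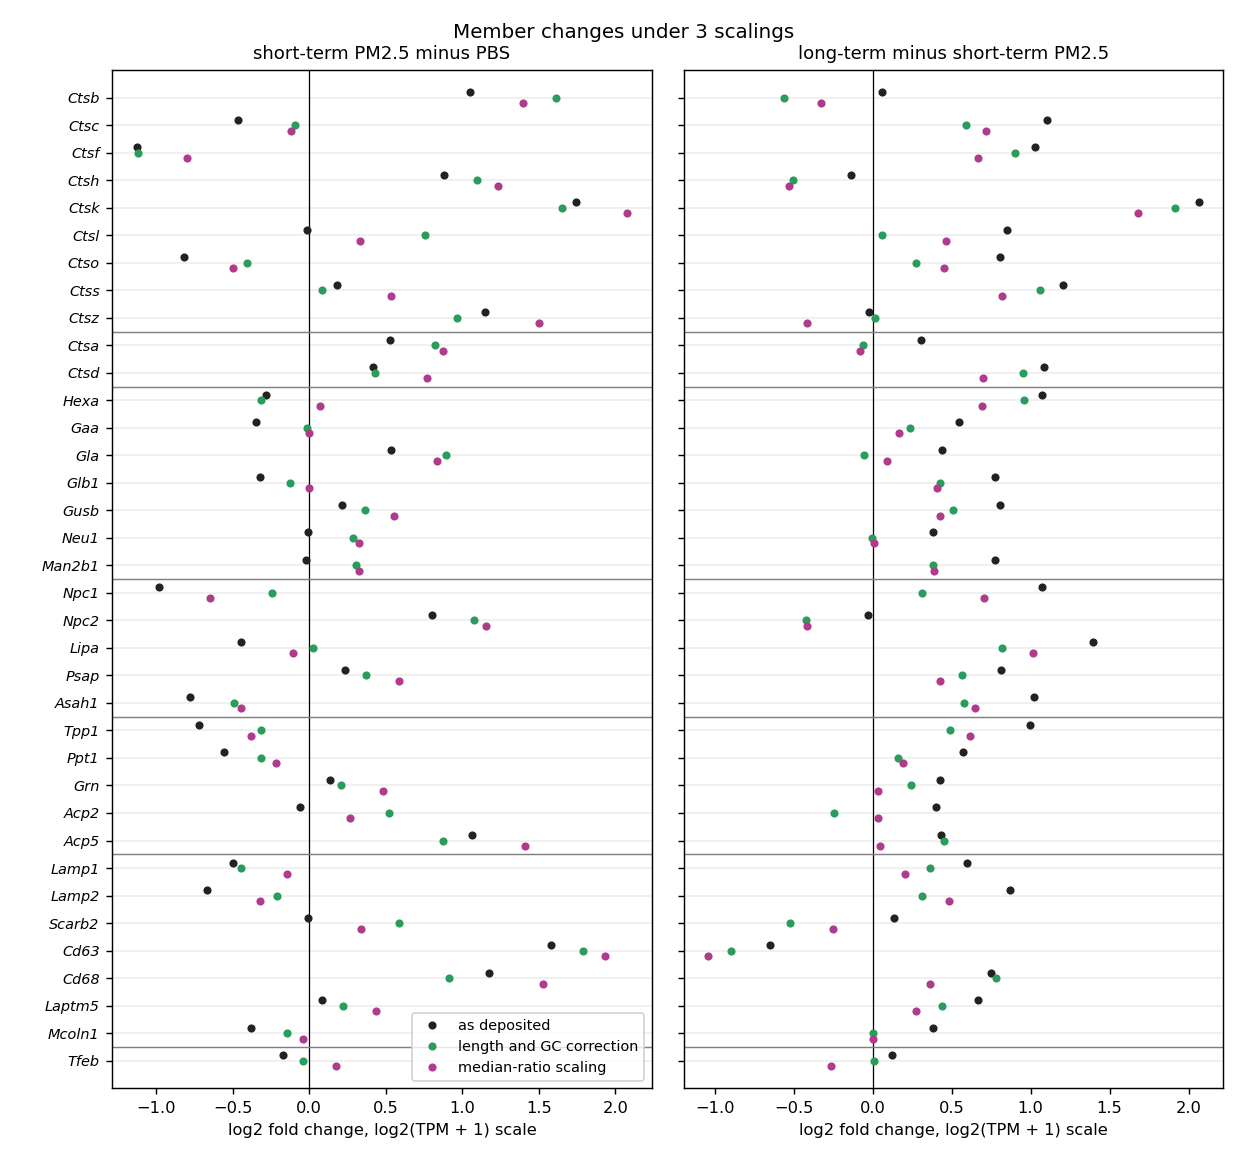
Log2 fold change of each member (horizontal axis) in short-term PM2.5 against PBS, left, and long-term against short-term PM2.5, right, with 1 dot for values as deposited, 1 after the length and GC correction and 1 after median-ratio scaling. Cd63 keeps its direction under all 3 on both sides, while Ctsa on the right moves from 0.31 as deposited to -0.06 and -0.08.

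Further genes of the lysosome were counted in the same fit. These list counts stand beside shares of all tested genes. In long-term PM2.5 against PBS 9.51% of all tested genes rose and 1.72% fell. In short-term PM2.5 against PBS 11.7% rose and 40.3% fell, or 24.0% and 26.4% after the length and GC correction. In long-term against short-term PM2.5 43.4% were higher and 7.08% lower, or 19.6% and 22.6% after the correction. Of 37 tested further soluble hydrolases and cofactors, 11 rose and 0 fell in long-term PM2.5 against PBS (limma, 0 lower at an unadjusted p under 0.05), with a median of 0.37. The largest were Pld3 (1.00, 104 to 208 TPM), an exonuclease of nucleic acids, Dpp7 (0.87), a dipeptidyl peptidase, and Lgmn (0.76), legumain, which processes cathepsins. In short-term PM2.5 against PBS 7 rose and 10 fell, or 11 and 6 after the length and GC correction, with Ids (-1.41), Arsb (-1.10) and Hyal1 (-1.05), enzymes of glycosaminoglycan breakdown, at the largest size. Long-term against short-term PM2.5 gave 23 higher and 0 lower as deposited and 11 and 3 after the correction.

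Of 25 other lysosomal membrane proteins, 5 rose and 0 fell in long-term PM2.5 against PBS (limma, 1 lower at an unadjusted p under 0.05). Slc11a1, the metal transporter NRAMP1 of phagosomes, rose in both exposures, by 1.38 after long-term and 1.42 after short-term PM2.5. So did Slc15a3, a transporter of peptides and histidine, by 1.06 and 0.64. Mfsd12, a cysteine transporter of melanosomes and lysosomes, rose by 0.79 after long-term PM2.5 and was at 0.06 after short-term PM2.5, which did not pass. The short-term comparison had 3 higher and 8 lower, or 9 and 4 after the length and GC correction, with Cd164 (-1.28) and Tmem106b (-1.11) the largest that fell as deposited. Of all tested genes 11.7% rose and 40.3% fell in that comparison as deposited.

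The V-ATPase, the proton pump that acidifies the lysosome, had 5 of 19 subunits higher and 0 lower in long-term PM2.5 against PBS (limma, 0 lower at an unadjusted p under 0.05). Atp6v0d2, a subunit abundant in osteoclasts and some macrophages, rose by 1.91, from 16.4 to 65.2 TPM, Tcirg1 by 0.75 and Atp6v0c by 0.71. After short-term PM2.5 7 subunits rose and 1 fell, or 13 and 1 after the length and GC correction, among them Atp6v0c (1.03), Atp6v0b (0.68) and Atp6v1f (0.62). In long-term against short-term PM2.5 6 were higher and 2 lower as deposited, and 2 and 7 after the correction, so the balance of that comparison depended on the scaling. Of all tested genes 43.4% were higher and 7.08% lower in it as deposited, and 19.6% and 22.6% after the correction.

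Genes that deliver enzymes to the lysosome and genes of autophagy were called in few cases in long-term PM2.5 against PBS. Of 10 delivery genes 0 passed in that comparison (limma, 0 at an unadjusted p under 0.05, 1 higher after the length and GC correction), and of 23 autophagy genes 0 passed (1 higher at an unadjusted p under 0.05, 1 lower after the correction). After short-term PM2.5 3 delivery genes fell, Sort1 (-1.20), a sorting receptor, Igf2r (-0.81), the large mannose phosphate receptor, and Gga3 (-0.58), and 11 autophagy genes fell and 1 rose, with the kinases Ulk2 (-1.58) and Ulk1 (-1.09) and the receptor Calcoco1 (-1.27) at the largest size. These falls stand beside the 40.3% of all tested genes that fell in this comparison as deposited. With the length and GC correction 2 delivery genes fell, and 9 autophagy genes fell and 2 rose, beside 26.4% of all genes that fell and 24.0% that rose.

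Of 16 relatives of Tfeb and genes of nutrient sensing at the lysosome, 1 rose in long-term PM2.5 against PBS, Rragd (0.87), a small GTPase and known target of Tfeb relatives, and 0 fell (limma, 0 at an unadjusted p under 0.05). After short-term PM2.5 2 rose and 7 fell, or 3 and 3 after the length and GC correction, and Rragd was among those that fell as deposited (-0.62), along with the kinase Mtor (-0.79) and Fnip1 (-1.12), a partner of folliculin, while Lamtor4 (0.81), a subunit of the Ragulator complex, rose. In long-term against short-term PM2.5 8 were higher and 1 lower, or 3 and 3 after the correction. As deposited 40.3% of all tested genes fell after short-term PM2.5. Between the exposures 43.4% were higher, so both counts of this list lie near the shares of all genes.

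Cystatins, the inhibitors of cysteine cathepsins, had 5 of 10 listed genes tested, and Stfa1 and BC100530 were not analysed here. In long-term PM2.5 against PBS 1 rose and 0 fell (limma, 1 lower at an unadjusted p under 0.05), and after short-term PM2.5 3 rose and 1 fell. Cstb, cystatin B, rose by 1.12 after long-term and 1.76 after short-term PM2.5, from 112 to 382 TPM in the latter, and was at -0.64 in long-term against short-term PM2.5. Stfa2 (1.85) and Stfa2l1 (1.83), stefins of myeloid cells with near-identical copies between which reads can be shared, rose after short-term PM2.5. Cst3, cystatin C, the most abundant of those tested, fell by 0.41 on the log2 scale after short-term PM2.5, from 1834 to 1382 TPM, and was at -0.01 after long-term PM2.5, which did not pass.

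Cell type markers changed as well, not all in the direction of the members. In whole lung a change in the number of cells of a type cannot be told apart from a change in RNA per cell. Beside the marker counts below, 9.51% of all tested genes rose in long-term PM2.5 against PBS. Of 12 alveolar macrophage markers 9 rose in long-term PM2.5 against PBS, with Chil3 (2.73), Marco (2.56) and Il1rn (1.99) at the largest size, and their summed level was 318 to 385 TPM with PBS, 211 to 373 TPM after short-term and 924 to 1069.8 TPM after long-term PM2.5. Of 16 markers of interstitial macrophages and monocytes 8 rose, and the sum was 4529 to 4946 TPM with PBS, 3502 to 5313 TPM after short-term and 8074 to 11284 TPM after long-term PM2.5. Lyz2, lysozyme, made up 76.7% to 91.9% of that sum in each library, and the other 15 markers summed to 384 to 464 TPM with PBS, 816 to 824 TPM after short-term and 742 to 1036 TPM after long-term PM2.5, so that both exposed groups were above PBS and overlapped with each other. Of 11 markers of lipid-laden macrophages 7 rose, Gpnmb (4.09) and Trem2 (2.55) among them, and the sum was 1020.4 to 1070.2 TPM with PBS, 1257 to 1575 TPM after short-term and 1976 to 2456 TPM after long-term PM2.5. These 3 sums were highest in the long-term libraries, as was the sum of the lysosomal members. Without the most abundant marker of each list, Chil3, Lyz2 and Lgals3, the long-term libraries stayed highest for the alveolar and lipid-laden lists and not for the interstitial and monocyte list. Without Lgals3 the lipid-laden sum was 820 to 885 TPM with PBS, 533 to 1022 TPM after short-term and 1371 to 1746 TPM after long-term PM2.5. The short-term libraries then overlapped PBS.

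After short-term PM2.5 the alveolar macrophage list had 2 of 12 higher and 4 lower, the interstitial macrophage and monocyte list 9 of 16 higher and 1 lower, and the lipid-laden list 6 of 11 higher and 3 lower. All 10 neutrophil markers rose as deposited, and 9 after the length and GC correction, among them S100a8 (1.997), and their sum was 358 to 566 TPM with PBS, 1012 to 1550.3 TPM after short-term and 369.9 to 609 TPM after long-term PM2.5, while 1 of 10 rose in long-term PM2.5 against PBS, Clec4d (1.88). Alveolar type II markers had 1 of 8 higher in long-term PM2.5 against PBS, Sftpd (0.87), and 2 higher and 2 lower after short-term PM2.5 as deposited, or 4 and 1 after the correction, with a sum of 45149 to 46397 TPM with PBS, 32601 to 38664 TPM after short-term and 48285 to 51023 TPM after long-term PM2.5. Sftpc made up 60.2% to 78.0% of that sum in each library, and the lower short-term sum came through it. The other 7 markers summed to 9923 to 10771 TPM with PBS. They summed to 12608 to 13254 TPM after short-term and 12009 to 12929 TPM after long-term PM2.5, so both exposed groups were above PBS. Fibroblast markers had 5 of 8 lower after short-term PM2.5, with a sum of 1039 to 1159 TPM with PBS, 574 to 855 TPM after short-term and 1154 to 1287 TPM after long-term PM2.5. The short-term counts of these lists stand beside 11.7% of all tested genes that rose and 40.3% that fell as deposited. After the correction these shares were 24.0% and 26.4%.

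Markers of lung structure moved as well. Of 7, 1 rose in long-term PM2.5 against PBS, Foxj1 (1.47, 90.3 to 252 TPM), a transcription factor of ciliated cells, and 3 fell, among them Cdh5 (-0.55, 565 to 386 TPM), the cadherin of endothelial cells, and Hopx (-0.53), of alveolar type I cells. After the length and GC correction 1 rose and 5 fell, where 12.4% and 11.6% of all tested genes did. After short-term PM2.5 0 rose and 3 fell (limma, 0 higher at an unadjusted p under 0.05), with Cdh5 at -1.05. Of all tested genes 11.7% rose and 40.3% fell there. In long-term PM2.5 against PBS, 1 of 7 dendritic cell markers rose, and 0 of 6 B cell, 0 of 7 T and NK cell and 0 of 4 tested mast cell and basophil markers passed (limma, 1, 1 and 0 at an unadjusted p under 0.05). No marker was at 0 in any library. The part of these markers in the changes of the lysosomal members was not tested.

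**Figure D5:**
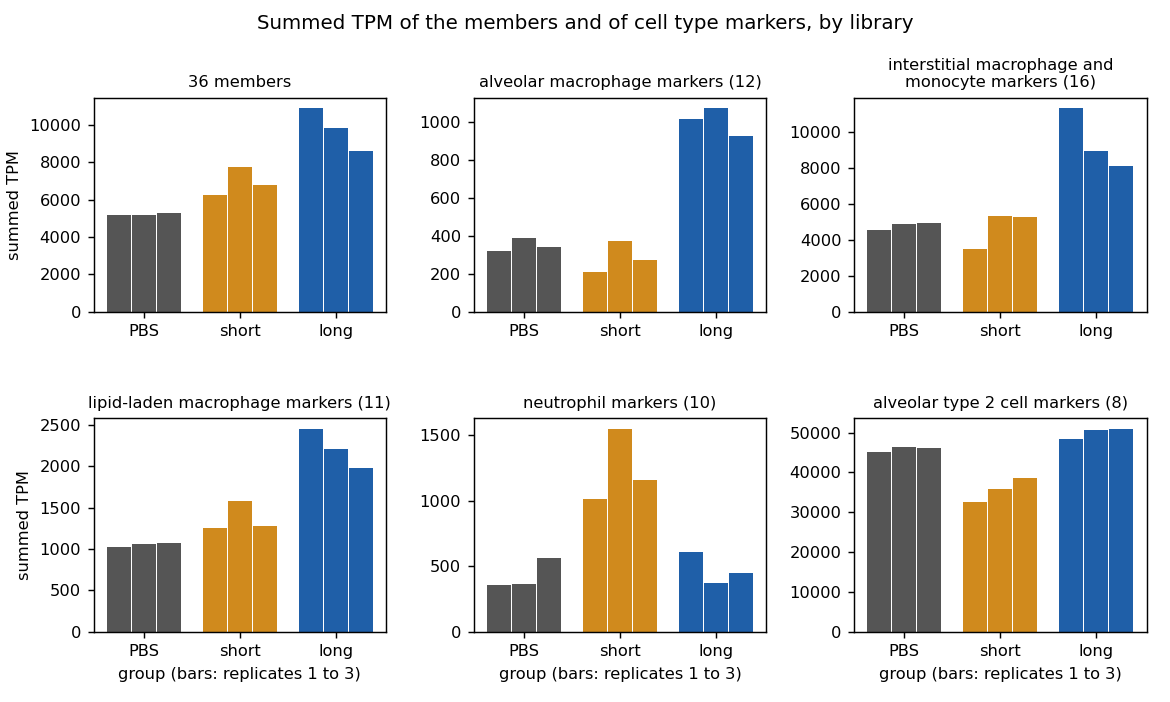
Summed TPM (vertical axis) of the 36 members and of 5 marker lists, with 1 bar for each library, replicates 1 to 3 within each group. The sum of the members and those of the 3 macrophage lists are highest in the long-term libraries, for the interstitial macrophage and monocyte list through Lyz2, and that of the neutrophil list is highest in the short-term libraries, at 1012 to 1550 TPM.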

How the data were processed

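Whole-lung poly(A) RNA from 9 samples was made into libraries, treated with duplex-specific nuclease (DSN), which lowers abundant transcripts, and sequenced on a DNBSEQ platform, per the labels' protocols. How evenly DSN acted between libraries cannot be seen from the values and bears on abundant members such as Ctsd, Psap and Lamp1. The authors deposited 1 table of TPM values, with 1 column per library. HISAT2, Bowtie2, RSEM and DESeq2 are named in the submitters' processing notes with no role or version, and the build is GRCm38.p6, named for 8 of the 9 samples. TPM columns all sum to the same total, so depth is unknown and no count model or counting interval was used.

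Genes that reached 1 TPM in 3 or more libraries (13991 of 18875) were fitted as log2(TPM + 1) over the 3 groups with limma 3.58.1 in R 4.3.3 (eBayes with intensity trend, 6 residual degrees of freedom). Tests were two-sided, p-values were adjusted by Benjamini-Hochberg across every tested gene, and the threshold was 0.05. Fold changes are on this scale, which understates the change of low genes. An exact test of 3 against 3 libraries cannot go below p = 0.1. The length and GC correction subtracts from each library natural splines (5 degrees of freedom each) in the length and GC content of the longest transcript, and leaves out 199 tested genes without one. The fitted level is subtracted too, so the correction also re-centres each library. After it the all-gene medians were -0.07 in long-term PM2.5 against PBS, -0.02 in short-term PM2.5 against PBS and -0.02 between the exposures. Alternatives, 20 in all, were other scalings, pseudocounts, filters and eBayes settings, the replicate number as a block, the 2 compared groups alone, and leaving out each library.

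All 36 members could be named. Values in every library are given for members that passed in at least 1 comparison, and full statistics where the absolute log2 fold change was at least 0.5. From each other list up to 3 passed genes with the largest change are named per comparison. The members and all lists were chosen with earlier results of these data known, so no list was tested as a set. Genes named outside this rule, after their values were seen, are the lung markers Ager and Sftpc, the abundant markers Lyz2 and Lgals3, and Cst3. Rragd, Slc15a3 and Mfsd12 in the short-term comparison were added likewise. The pipeline was tested on simulated data. Figures and annotation used Python 3.11.15 and matplotlib 3.10.9.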

Additional observations from a re-analysis of the deposited data

How the results depend on the processing

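The count of called members in long-term PM2.5 against PBS was 19 and ran from 17 to 23 with each library left out in turn. In short-term PM2.5 against PBS it was 19 and ran from 12 to 23, with 12 without PBS replicate 1 (9 higher and 3 lower), and in long-term against short-term PM2.5 it was 27 and ran from 19 to 29. With median-ratio scaling the last count was 16 (13 higher and 3 lower). Over all 20 alternatives 17 of 19, 10 of 19 and 12 of 27 called members kept their call, in the same order. The cause of these moves was not tested. The direction turned in long-term against short-term PM2.5 for Ctsa, at -0.0795 with median-ratio scaling and -0.0580 with the length and GC correction, with or without the replicate block. It also turned for Neu1, at -0.0084 with quantile normalization and -0.0044 with the length and GC correction, with or without the replicate block. Depth is unknown, so precision rests on 3 libraries a group.

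The deviations of same-numbered samples of different groups from their group means had correlations of -0.287 to 0.262 over 9 pairs. Differently numbered samples were not compared in this way, so these values cannot show whether the numbers pair the samples. The labels state no block, and the main fit used none. With the replicate number as a block 19, 17 and 24 members were called in long-term PM2.5 against PBS, short-term PM2.5 against PBS and the 2 exposures against each other, and 21, 20 and 23 with the length and GC correction added to the block.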
